A study of Saccharomyces cerevisiae with 9 samples.

Results

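PBI1 (YPL272C), YPR145C-A, YMR317W and OSW2 (YLR054C) are 4 little studied protein-coding genes of Saccharomyces cerevisiae, out of 6629 identifiers counted by RNA sequencing in 3 strains. They were selected on these libraries, for large rises in the strain that overexpresses YET3 over a low level in the control strain. Low is meant in CPM (counts scaled to a common total). Per kilobase of gene, which assumes reads along whole transcripts, YPR145C-A stood above 69.9% of annotated genes in the control. Their differences between those groups therefore stand here as a description, with no test. YET3 encodes an endoplasmic reticulum membrane protein related to mammalian BAP31, and the series concerns sterol synthesis at contact sites between organelles. All strains carry HISDel1, LEU2Del0, MET15Del0 and URA3Del0, which remove functional HIS3, LEU2, MET15 and URA3. The control is HO::NATR, with the nourseothricin-resistance marker at HO. The overexpression strain is NATR::TEFpr-YET3, in which the marker and the strong constitutive TEF promoter stand before YET3. The deletion strain is DelYET3::NATR, in which the marker takes the place of YET3. Cells grew exponentially in SD, a synthetic glucose medium, total RNA was sequenced, and each strain gave 3 libraries. The labels do not say whether the repeats are separate cultures, so the p-values below reflect only how much these libraries differ, and that may be technical.

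Little is known of the proteins these genes encode. The annotation calls the PBI1 product a hypothetical protein whose gene is induced by ketoconazole, an azole that blocks lanosterol demethylation in sterol synthesis. It links OSW2 to assembly of the spore wall, the layered coat built around meiotic products when a diploid cell sporulates. YPR145C-A and YMR317W are annotated as hypothetical proteins only, and PBI1 and YMR317W as not essential. In budding yeast, sterol genes and the cell wall mannoproteins of oxygen-poor growth are switched on by the zinc-cluster factor Upc2 when sterol is low. Upc2 binds a sterol response element, and the mannoprotein promoters carry the related AR1 sites.

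In build R64, PBI1 lies on chromosome XVI from 26611 to 28164 on the minus strand, 26610 bases from the chromosome end. YPR145C-A lies on the same chromosome from 824690 to 824926, also on the minus strand. YMR317W lies on chromosome XIII from 907364 to 910786 on the plus strand, 13645 bases from the chromosome end. OSW2 lies on chromosome XII from 248717 to 250978 on the minus strand and is the only one of the 4 with 2 coding exons. No other annotated feature overlaps any of them. Their predicted proteins, translated from the RefSeq annotation, have 517, 78, 1140 and 724 residues. Serine and threonine made up 50% of the YMR317W protein, a share above that of 99.9% of 6008 yeast proteins. The shares were 16.6% for PBI1, 17.9% for YPR145C-A and 14.1% for OSW2, beside a mean of 14.4% over all proteins. BLASTP found no other yeast protein at an E value under 1e-05 for any of the 4.

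The upstream stretches are printed because the regulators named above act there. Each runs from 250 to 101 bases before the start codon, on the strand of the gene, 5′ to 3′, read from the R64 RefSeq genome. The stretches are chrXVI:28265-28414 (minus) for PBI1, chrXVI:825027-825176 (minus) for YPR145C-A, chrXII:251079-251228 (minus) for OSW2 and chrXIII:907114-907263 (plus) for YMR317W. Capitals mark matches to a searched motif on either strand.
PBI1: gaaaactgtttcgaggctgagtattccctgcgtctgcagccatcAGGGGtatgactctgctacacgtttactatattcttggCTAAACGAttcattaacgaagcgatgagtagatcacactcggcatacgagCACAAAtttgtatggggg
YPR145C-A: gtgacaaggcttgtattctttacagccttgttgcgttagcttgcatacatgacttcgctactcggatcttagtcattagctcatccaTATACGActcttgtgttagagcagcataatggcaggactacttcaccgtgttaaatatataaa
OSW2: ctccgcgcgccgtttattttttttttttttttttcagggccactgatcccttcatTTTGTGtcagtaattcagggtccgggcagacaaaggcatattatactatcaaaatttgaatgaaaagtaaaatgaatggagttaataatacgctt
YMR317W: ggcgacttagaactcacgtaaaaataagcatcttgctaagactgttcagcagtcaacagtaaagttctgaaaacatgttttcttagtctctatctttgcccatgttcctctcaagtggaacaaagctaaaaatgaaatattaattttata

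The search covered both strands from 250 bases before to 50 bases after the start codon of 6001 genes, and no matches in the 4 genes overlapped. The sterol response core TCGTATA was found in YPR145C-A, as TATACGA at -163 to -157, and in 4.15% of all promoters. The AR1 motif TCGTTNAG was found in PBI1, as CTAAACGA at -168 to -161, and in 2.73% of all promoters. CACAAA, the core of the site bound by the meiotic factor Ndt80, was found in PBI1 at -118 to -113 and in OSW2 at -195 to -190, the latter as TTTGTG, and in 18.8% of all promoters. The stress element AGGGG was found in PBI1 at -206 to -202 and in 21.6% of all promoters. None of the 4 held ATTGTT (core of the site of the aerobic repressor Rox1, 35.2% of promoters), TCCGNGGA (element of the drug resistance factors Pdr1 and Pdr3, 1.22%) or CATGTG (Ino2 and Ino4 core, 6.93%). YMR317W held no match in this window. When 500 bases were searched, AR1 matches were also present in YMR317W at -361 to -354 and in PBI1 at -314 to -307, with the motif in 5.12% of promoters, and AGGGG matches in OSW2 at -343 to -339, inside the coding region of SPT8, and in PBI1 at -448 to -444, with that motif in 34.1% of promoters. Of the 15 late sterol synthesis genes, 1 held TCGTATA and 5 held TCGTTNAG in the shorter window, and 6 and 7 in the longer one, where TCGTATA was in 7.0% of all promoters. A match gives letters only; binding was not measured.

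The libraries held between 223189 (control 3) and 1634021 (deletion 1) counts, so that 1 count stood for 0.591 to 4.4 CPM after TMM scaling. Control 3 was therefore the least precise library for these genes. YET3 itself stood at 477, 477 and 479 CPM in the control, at 2261, 2029 and 1341 CPM in the overexpression libraries, and at 728, 328 and 640 CPM in the libraries labelled YET3 deletion. If the YET3 row covers the part removed, it contradicts the label, and if it covers other sequence it checks nothing, so the group is called the labelled deletion, and deletion 1, 2 and 3 are names of its libraries as labelled. On the first principal component, overexpression 3, deletion 1 and deletion 3 scored 27.7 to 38.9 and lay apart from the rest, which scored -25.7 to -10.5. Results are therefore also given without these 3, a fit in which overexpression rests on 2 libraries and the labelled deletion on deletion 2 alone. The markers of mating type a were present in every library. The a-factor genes MFA1 and MFA2 ranged from 324 to 951 CPM, STE2 from 117 to 306 CPM and BAR1 from 22.0 to 85.2 CPM. Of the alpha-specific markers, MF(ALPHA)1 and MF(ALPHA)2 had 5 and 8 counts in all 9 libraries together. STE3 (3.15 to 17.5 CPM) and SAG1 (7.04 to 23.6 CPM) were detected in every library, and SAG1 reached the lowest BAR1 values.

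PBI1 was at or near the detection limit outside the overexpression strain. Its counts were 3, 12 and 0 in control libraries 1 to 3, which is 4.22, 7.35 and 0 CPM. For the 0, a floor of 3 counts is 13.2 CPM, and its 95% counting interval ends at 16.2 CPM. In overexpression libraries 1 to 3 it had 250, 247 and 120 counts, or 417, 389 and 263 CPM. The libraries labelled deletion had 7, 0 and 3 counts, or 4.14, 0 and 7.99 CPM. There the floor for the 0 is 4.55 CPM, and its counting interval ends at 5.60 CPM. All 3 overexpression libraries stood far above the rest, and above the 16.2 CPM at which the interval of control 3 ends. The control and the labelled deletion overlapped.

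The PBI1 mean was 356 ± 82.4 CPM (SD, n = 3) with YET3 overexpression, 3.86 ± 3.69 CPM in the control and 4.04 ± 4.0 CPM in the labelled deletion. The log2 fold change of overexpression over control was 5.97 (SE 0.49, 95% interval 4.91 to 7.03), or 62.8-fold, the highest of the 5090 genes tested. The ratio of summed counts scaled for depth was 62.5, with an interval of 37.6 to 112 that covers counting error only. Control 2 gave 12 of the 15 control counts, and without it the log2 fold change was 6.75. Per kilobase of gene, PBI1 moved from a level above 5.46% of 5956 annotated genes in the control to one above 85.8% of them. Levels per kilobase, here and below, assume reads along whole transcripts, which is not stated for these libraries. Overexpression 3 had the least PBI1 and also the least YET3 of its group: PBI1 CPM was 18.5%, 19.2% and 19.6% of YET3 CPM in libraries 1 to 3. Whether the YET3 level has a part in this was not tested.

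YPR145C-A, the shortest of the genes, was detected in every library. It stood at 23.9, 12.3 and 22.0 CPM in control libraries 1 to 3 (17, 20 and 5 counts). Overexpression libraries 1 to 3 gave 200, 284 and 440 CPM (120, 180 and 201 counts), and the labelled deletion 20.7, 18.2 and 13.3 CPM (35, 12 and 5 counts). The overexpression libraries lay above all others, while the control and the labelled deletion overlapped, and the lowest overexpression library was 8.37 times the highest other one.

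The YPR145C-A mean rose from 19.4 ± 6.25 CPM in the control to 308 ± 122 CPM (SD, n = 3) with overexpression, a log2 fold change of 4.10 (SE 0.38, 95% interval 3.28 to 4.91), or 17.1-fold, rank 5 of 5090. Its highest value was in overexpression 3, where YET3 and PBI1 were lowest, and the 95% counting interval of that library (381 to 505 CPM) did not reach that of library 2 (244 to 328 CPM) or library 1 (166 to 239 CPM). As a share of YET3 CPM it therefore spread from 8.86% to 14.0% and 32.8% over libraries 1, 2 and 3. Overexpression 3 is also the library of its group that lay apart, and whether that has a part in the spread was not tested. Without the 3 libraries lying apart, the log2 fold change was 3.84. Per kilobase of its 237 bases it stood above 96.1% of annotated genes with overexpression, and higher than the other 3 genes in every strain. In CPM, not divided by length, PBI1 was higher with overexpression and OSW2 in the control and the labelled deletion.

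YMR317W, the longest of the genes and the one with the serine- and threonine-rich product, stayed low throughout. It had 3, 7 and 4 counts in control libraries 1 to 3, which is 4.22, 4.29 and 17.6 CPM. Overexpression libraries gave 22, 22 and 13 counts, or 36.7, 34.7 and 28.4 CPM, and the labelled deletion 19, 4 and 2 counts, or 11.2, 6.07 and 5.33 CPM. The values of the overexpression group lay above all others, but the margin was narrow: the lowest was 1.62 times control 3, whose counting interval of 4.79 to 45.0 CPM overlapped those of all 3 overexpression libraries.

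The YMR317W means were 8.70 ± 7.69 CPM in the control, 33.3 ± 4.31 CPM with overexpression and 7.54 ± 3.22 CPM in the labelled deletion (SD, n = 3 each). The log2 fold change of overexpression over control was 2.49 (SE 0.49, 95% interval 1.44 to 3.54), or 5.62-fold, rank 10 of 5090. On summed counts the ratio was 6.19 (counting interval 3.40 to 12.0). Even with overexpression its level per kilobase was above only 19.4% of annotated genes, against 5.57% in the control.

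OSW2, which the annotation links to the spore wall, was the steadiest of the 4 in the control. With overexpression its highest library was 1.26 times its lowest, close to the 1.29 times of YMR317W. OSW2 stood at 28.1, 26.4 and 30.8 CPM in control libraries 1 to 3 (20, 43 and 7 counts) and at 125, 136 and 158 CPM in the overexpression libraries (75, 86 and 72 counts). In the labelled deletion it stood at 72.7, 22.8 and 48.0 CPM (123, 15 and 18 counts). The overexpression libraries lay above all others, the lowest 1.72 times deletion 1. Deletion 1 and deletion 3, which both lay apart, stood above every control library, and deletion 2 below every one.

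The OSW2 mean was 28.4 ± 2.22 CPM in the control, 139 ± 16.5 CPM with overexpression and 47.8 ± 25 CPM in the labelled deletion (SD, n = 3 each). The log2 fold change of overexpression over control was 2.32 (SE 0.36, 95% interval 1.55 to 3.09), or 4.99-fold, rank 12 of 5090, and the count ratio was 5.06 (counting interval 3.86 to 6.71). Per kilobase OSW2 moved from above 25.2% to above 64.1% of annotated genes.

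**Figure D1:**
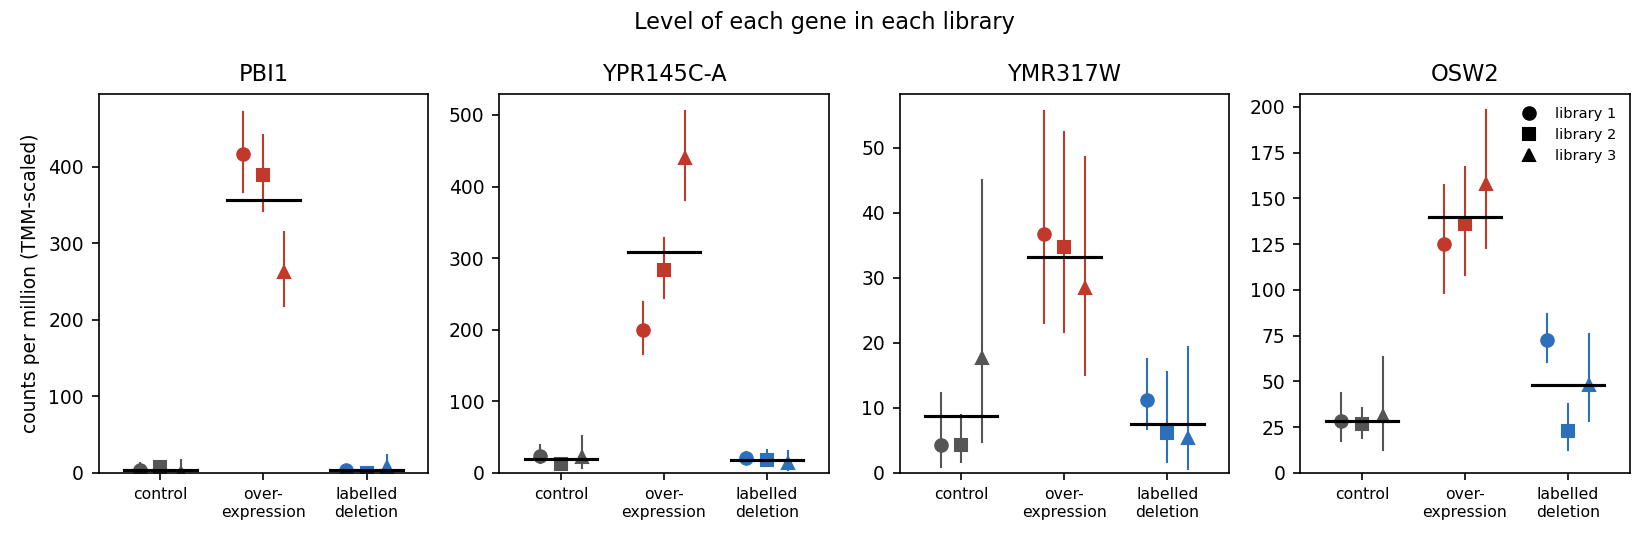
Level of each gene in each library, in TMM-scaled CPM on linear axes that start at 0 and differ between panels. Points are libraries (circle, square and triangle for libraries 1, 2 and 3), vertical lines their 95% Poisson counting intervals and black bars group means. The overexpression points lie above all others in each panel. The margin is widest for PBI1 (lowest 263 CPM, where the interval of the 0 in control 3 ends at 16.2 CPM). It is narrow for YMR317W (28.4 against 17.6 CPM).

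In overexpression against control, 32 of 5090 genes were called higher (0.629%; edgeR quasi-likelihood F-test, Benjamini-Hochberg adjusted p under 0.05) and 11 lower. The 4 genes are among the 32, from which nothing is read, since this contrast chose them. In all 4, every overexpression library lay above every control library, as in 8.51% of all genes tested. In all 4, every overexpression library lay above every labelled deletion library, as in 5.30% of all genes. The overexpression libraries lay above all other 6 in 2.34% of genes, and nothing is read from these shares either. PBI1 and YMR317W also passed the filter on low counts only through the overexpression group. In these bulk samples, more cells with a transcript and more transcript per cell cannot be told apart.

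**Figure D2:**
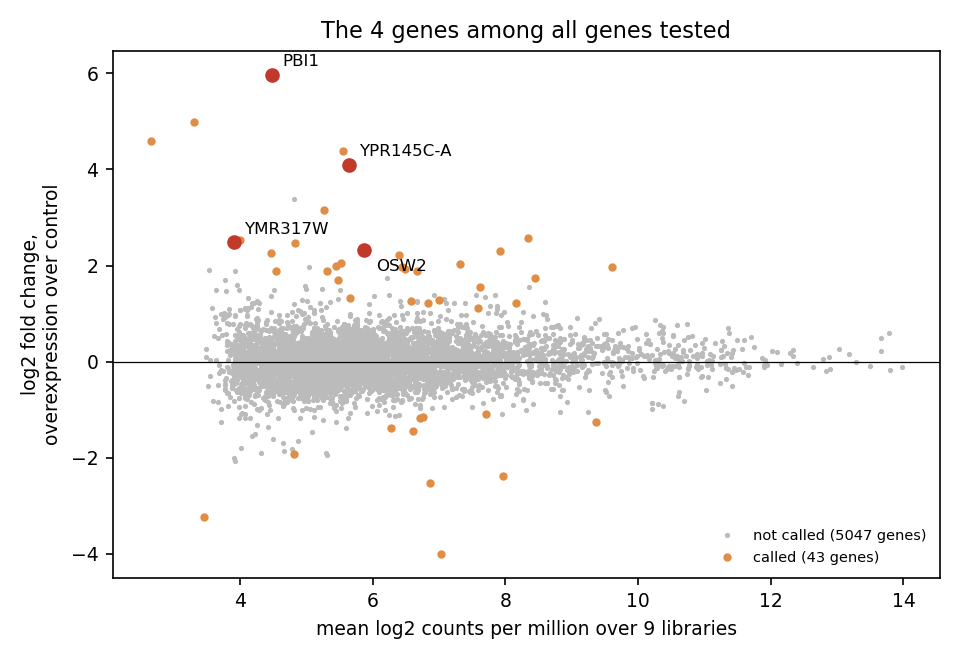
Log2 fold change of overexpression over control against mean log2 CPM over the 9 libraries, for the 5090 genes tested. Orange points are the 43 genes called, grey points the genes not called, and red points the 4 genes described, of which PBI1 is the highest point at 5.97.

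Neither YPR145C-A nor OSW2 was called in the libraries labelled YET3 deletion, and PBI1 and YMR317W, which entered the fit only through the overexpression group, are described there without a test. The libraries labelled deletion took no part in the choice of the genes, but the control libraries did. The log2 fold change of labelled deletion over control was 0.05 for YPR145C-A (SE 0.42, 95% interval -0.85 to 0.95, edgeR adjusted p = 0.967), whose group means were 17.4 CPM in the labelled deletion and 19.4 CPM in the control, a small difference in the other direction. The adjusted p is over all 5090 genes. For PBI1 the fitted value was -0.58 (SE 0.71, 95% interval -2.12 to 0.97) and the group means were 4.04 CPM in the labelled deletion and 3.86 CPM in the control, again opposite in sign. For YMR317W the fitted value was 0.56 (SE 0.55, 95% interval -0.63 to 1.74) while the means were 7.54 CPM in the labelled deletion and 8.70 CPM in the control. No direction is therefore read for these 3 genes, whose intervals include 0.

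OSW2 had the largest difference, at 0.85 (SE 0.37, 95% interval 0.06 to 1.64), which did not pass the test over all genes (edgeR adjusted p = 0.406, 0.0576 to 0.999 over the alternatives). Without the 3 libraries lying apart it was -0.26 (adjusted p = 0.997), and it was above the control mean in 2 of 3 libraries. A positive fitted fold change was found for 50.8% of all genes tested. Across all genes, 1 was called in this comparison (0.0196%) by edgeR, with 604 at an unadjusted p under 0.05, and 5 were called by DESeq2.

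Overexpression was also set directly against the labelled deletion, as a description. The log2 fold change was 6.55 (SE 0.51) for PBI1, 4.05 (SE 0.36) for YPR145C-A, 1.93 (SE 0.44) for YMR317W and 1.47 (SE 0.32) for OSW2. For OSW2 it was smaller than the difference from the control, and deletion 1 and deletion 3 stood above every control library. Without the 3 libraries lying apart it was 2.51 for OSW2 and 2.52 for YMR317W. For PBI1, overexpression libraries 1 and 2 then stand at 403 CPM against 0 counts in deletion 2. That is 88.5-fold higher if deletion 2 is set at the floor of 3 counts.

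**Figure D3:**
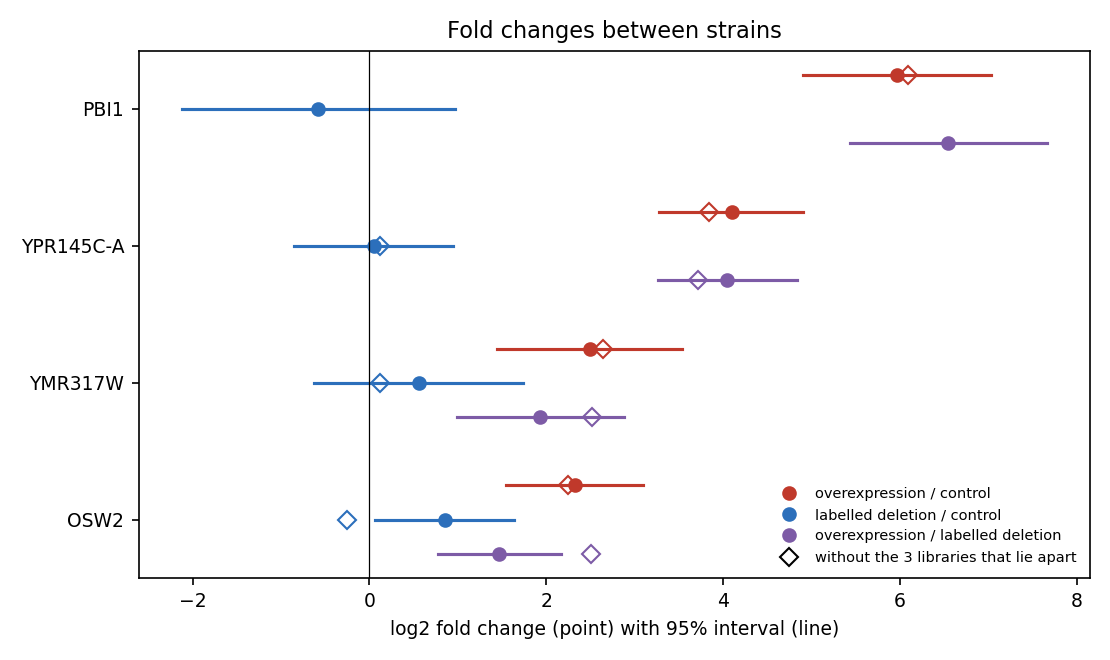
Log2 fold change (points) with its 95% interval (lines) for the 3 comparisons between strains, and without the 3 libraries that lie apart (open diamonds, none for PBI1 in the comparisons with the labelled deletion). The intervals for labelled deletion over control include 0 for PBI1, YPR145C-A and YMR317W, and the OSW2 point moves from 0.85 to -0.26.

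None of the tested genes next to the 4 on the chromosome was called in overexpression against control. Over all 5090 genes tested, 32 (0.629%) were called higher and 11 lower, so nothing is read about these loci from the lack of calls. PBI1 lies between SAM4, an S-adenosylmethionine-homocysteine methyltransferase (log2 fold change of overexpression over control 0.36, SE 0.24, edgeR adjusted p = 0.770), and ATP15, a subunit of the mitochondrial ATP synthase (-0.14, SE 0.31, adjusted p = 0.941). YPR145C-A lies between the asparagine synthetase gene ASN1 (0.13, SE 0.20, adjusted p = 0.913) and the lipase gene YPR147C (0.35, SE 0.26, adjusted p = 0.791). YMR317W lies 274 bases from the alcohol dehydrogenase gene ADH6, whose end faces its own (0.29, SE 0.21, adjusted p = 0.787), and its other neighbour YMR316C-A was too low to test. OSW2 lies 293 bases downstream of SPT8, which encodes a SAGA subunit and is read in the same direction (-0.80, SE 0.40, adjusted p = 0.744), and its other neighbour NRS1 was too low to test.

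Within 10 kb, 1 of 11 tested genes around OSW2 was called higher. This was ERG3, the C-5 sterol desaturase gene, 2882 bases away on the far side of SPT8, with a log2 fold change of 2.57 (SE 0.23, edgeR adjusted p = 7.79e-05). Around YMR317W, 1 of 10 was called higher, the hypothetical gene YMR315W-A (1.28, SE 0.24, edgeR adjusted p = 0.0241), 2970 bases away, a call lost without any one of the control libraries or without overexpression 1 or 2. None of 5 tested genes around PBI1 and none of 12 around YPR145C-A was called, and none of the genes in these windows was called lower. With 0.629% of all 5090 genes tested called higher, these small counts are not read as a result about the loci.

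**Figure D4:**
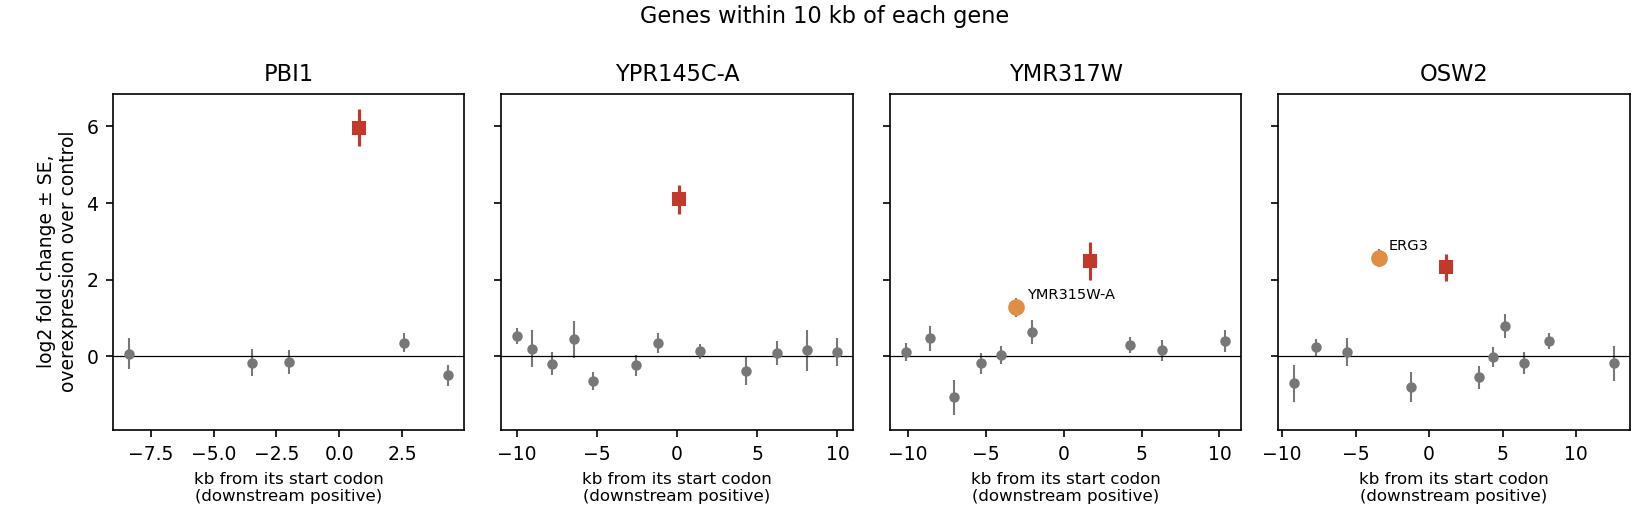
Log2 fold change (± SE) of overexpression over control for tested genes within 10 kb of each of the 4 genes, against the distance in kb of each gene's midpoint from the start codon of the central gene, downstream positive. Red squares are the 4 genes, orange points other genes called higher and grey points genes not called; ERG3 (2.57) beside OSW2 and YMR315W-A (1.28) beside YMR317W are the only orange points.

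The likeness of expression patterns was measured as Pearson's r of log2 CPM over the 9 libraries, which share the strain groups and the 3 libraries lying apart, so it is a description. The 5 genes most like PBI1 were HEM13, an oxygen-dependent heme synthesis enzyme (0.971), the small heat shock protein gene HSP26 (0.959), the oxysterol-binding protein gene HES1 (0.958), YET3 (0.958) and ERG3 (0.956). For YPR145C-A they were HES1 (0.983), the transaldolase gene NQM1 (0.973), ERG4, the last enzyme of ergosterol synthesis (0.959), HSP26 (0.958) and FHN1, annotated as ketoconazole-induced (0.956). HES1 had 2 counts in the control libraries together, 38 with overexpression and 3 in the labelled deletion, so its r rests on few counts.

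For OSW2 the nearest genes were the repressor gene NRG2 (0.966), the squalene epoxidase gene ERG1 (0.960), the sphingoid base phosphatase gene YSR3 (0.954), the fatty acid synthase gene FAS1 (0.951) and FLC1 (0.949). For YMR317W they were less close: the helicase-like gene YEL077C (0.934), DFP3 (0.928), the mannoprotein gene DAN1 (0.923), the vitamin B6 synthesis gene SNZ1 (0.916) and the calmodulin gene CMD1 (0.914). YEL077C lies in a repeated telomeric element and its counts are uncertain. DAN1 had only 5 counts in the control libraries together and 3 in the labelled deletion, beside 118 with overexpression. Among the 4 genes themselves r ran from 0.792 (PBI1 and YMR317W) to 0.925 (PBI1 and YPR145C-A). The 4 genes were selected for rises in the same overexpression libraries, so nothing is read from these values. Nearest genes that rose in those libraries share this limit.

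The gene groups that the annotation and the motifs connect with these 4 were then counted in overexpression against control. These lists were chosen with earlier results of these data known, so the counts are no independent check. All 15 late sterol synthesis genes had a positive log2 fold change (median 1.12, beside a median of 0.00 over all genes). Of these, 7 were called higher, beside 0.629% of all genes tested. They were ERG3 at 2.57, ERG25 at 2.30, ERG5 at 2.05, ERG1 at 1.88, ERG28 at 1.74, ERG26 at 1.56 and ERG4 at 1.12. The count rested on single libraries: it was 1 without control 1, 3 without control 2, control 3 or overexpression 2, and 9 without overexpression 3. Over all genes, the number called higher was 9 without control 1, 13 without control 2 and 18 without control 3. It was 19 without overexpression 2 and 35 without overexpression 3. ERG3 was kept when each library was left out in turn.

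Of the 8 anaerobic mannoprotein genes, 6 were tested (median 2.12) and 3 were called higher: DAN1 at 4.99, TIR1 at 4.38 and TIR3 at 3.15. Over all genes tested, 0.629% were called higher. DAN1 and TIR1 passed the low-count filter only through the overexpression group, so their calls and the median stand as a description. DAN1 had 5 counts in the control libraries together, 118 with overexpression and 3 in the labelled deletion. TIR1 stood at 9.85, 23.3 and 22.0 CPM in the control and at 381, 432 and 348 CPM with overexpression. Every overexpression library lay above every control library, as in 8.51% of all genes tested. None of the 9 sterol and oxygen regulators was called (median 0.44). Their smallest p was that of UPC2, at 14.1, 16.5 and 17.6 CPM in the control and 53.4, 52.0 and 28.4 CPM with overexpression (log2 fold change 1.5, SE 0.38, edgeR adjusted p = 0.131). Without overexpression 3, 1 of these 9 regulators was called higher, beside 35 over all genes.

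Of the 34 other sporulation and spore wall genes, 9 passed the low-count filter and none was called (median -0.18), the smallest p being that of SPO73 (log2 fold change 0.82, SE 0.32, edgeR adjusted p = 0.600). Of the 4 sporulation markers, NDT80, a meiotic regulator, stood at 4.4 to 11.3 CPM in the control and 11.7 to 25.2 CPM with overexpression. These ranges nearly touched, and NDT80 did not pass the low-count filter. Among genes that did, 8.51% had every overexpression library above every control library. The ranges of the other markers overlapped between control and overexpression: IME1 stood at 9.85 to 14.7 against 10.9 to 18.4 CPM, SPS4 at 0 to 2.45 against 0 to 3.15 CPM and DIT1 at 2.45 to 8.79 against 4.73 to 11.7 CPM. Over all 9 libraries these 4 had 80, 104, 18 and 62 counts. Their part in the OSW2 level was not tested. Of the 12 pleiotropic drug resistance genes, 9 were tested and none was called (median 0.42), the smallest p being that of ICT1 (1.01, SE 0.36, edgeR adjusted p = 0.494). Over all 5090 genes tested, 0.629% were called higher and 11 genes lower, so nothing is read from the lack of calls in either list.

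Among the other genes of unknown function, 274 of 563 were tested, with a median of -0.02, and 132 had a positive fold change. YJL213W (1.89, SE 0.35, edgeR adjusted p = 0.0243) and YMR315W-A were called higher and YNL194C, a gene annotated as needed for sporulation, lower (-1.15, SE 0.24, edgeR adjusted p = 0.0432). Over all genes tested, 0.629% were called higher. YJL213W passed the low-count filter only through the overexpression group, and its call was lost without any one of the control libraries or overexpression 3. The YNL194C call was lost without any one of the control libraries, overexpression 1 or 2, or deletion 1. Calls without the 3 libraries lying apart are not given for these genes, since that fit leaves the labelled deletion on deletion 2 alone. No gene of any of these lists was called in labelled deletion against control. Over all 5090 genes tested 1 was called there (0.0196%), so nothing is read from that lack of calls.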

How the data were processed

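The authors deposited 1 table per library with whole-number counts per open reading frame, not normalized. Build R64 and the tools cutadapt and UMI-tools were used, per the submitters' processing notes. The aligner, the counter and how strand and shared reads were handled were not given in the sources used here. Nor is it stated whether counts are molecules, or whether reads cover whole transcripts, which the levels per kilobase assume. Intervals and floors describe counting error alone. Of 6631 rows in each table, 2 appended duplicates (0.0372% to 0.0569% of counts) were left out. Of 6629 identifiers, 5956 matched RefSeq R64, the source of names, coordinates and sequences, and 673 did not.

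Genes were kept with filterByExpr (minimum count 10, total 15; 5090 genes), scaled by TMM and fitted over all 9 libraries with edgeR 4.0.16 (limma 3.58.1, R 4.3.3), with its quasi-likelihood F-test and p-values adjusted by Benjamini-Hochberg over all genes tested, at 0.05. Likeness used log2 CPM with a prior count of 2. Counting intervals are exact Poisson at 95%. Proteins were compared with BLAST 2.17.0. DESeq2 1.42.0 served as an alternative. The script was tested on simulated data. Same-group library pairs differed by more than sampling noise (chi-square per degree of freedom 1.50 to 18.1).

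Besides the 4 genes and YET3, the text names for each the 5 genes with the highest Pearson r, its chromosome neighbours, genes called within 10 kb, and of each list the genes called, or else the one with the smallest p. NDT80 and the markers come from a marker list, and the 10 kb windows were added later. The genes and lists were chosen with earlier results of these data known. The alternatives were other scaling, test, filters, 6 libraries, a replicate block, the construct genes left out, each library left out, and the 3 libraries lying apart left out or given a term. The 500-base window was chosen after seeing the data.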

Additional observations from a re-analysis of the deposited data

How the results depend on the processing

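In overexpression against control the 4 genes kept their direction under all 18 alternatives. Nothing is read from that, since this contrast chose them and every overexpression library lay above every control library. Leaving out each library in turn gave 5.81 to 6.75 for PBI1, 3.71 to 4.38 for YPR145C-A, 2.02 to 2.93 for YMR317W and 2.23 to 2.39 for OSW2, and a term for the 3 libraries lying apart gave 2.11 for OSW2. In labelled deletion against control no alternative gave a call for YPR145C-A or OSW2. The sign there turned for PBI1 (range -0.93 to 0.20 with each library left out; 0.20 without control 2), for YPR145C-A (-0.36 to 0.32; -0.36 without control 2, -0.13 without deletion 1, and -0.39 with the term), for YMR317W (0.00 to 0.99; 0.00 without deletion 1) and for OSW2 (0.27 to 1.17; -0.26 without the 3 libraries). Against the labelled deletion, leaving out each library gave 6.13 to 6.91 for PBI1, 3.70 to 4.29 for YPR145C-A, 1.79 to 2.49 for YMR317W and 1.15 to 2.05 for OSW2, and leaving out the 3 libraries gave 2.52 for YMR317W and 2.51 for OSW2.

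Genes called higher in overexpression against control numbered 32, 90 without the 3 libraries, 72 with the term and 9 to 37 with each library left out (9 without control 1, 13 without control 2, 18 without control 3, 19 without overexpression 2). Genes called lower numbered 11, 18 with the DESeq2 Wald test, 4 with the replicate block, 76 without the 3 libraries, 41 with the term and 2 to 13 with each library left out. In labelled deletion against control 1 gene was called lower, 5 with DESeq2, 3 in the fit of 6 libraries, 5 without the 3 libraries and 1 to 5 with each library left out. The cause was not tested. With the 500-base window, 2 of the 4 genes held the AR1 motif (5.12% of promoters) and 2 the stress element (34.1%).

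Correlations of same-numbered libraries' deviations were -0.0776, 0.00245 and -0.141 for overexpression and control, 0.129, -0.105 and -0.0590 for labelled deletion and control, and -0.460, 0.511 and 0.312 for overexpression and labelled deletion. In no comparison were all 3 above 0.1, so the libraries were taken to share only a number. With the replicate block the fold changes over control were 6.05, 3.99, 2.45 and 2.28 in overexpression and -0.57, 0.02, 0.46 and 0.73 in the labelled deletion for PBI1, YPR145C-A, YMR317W and OSW2, and 23 genes were called higher with overexpression. The fit of control and labelled deletion alone gave no value for PBI1 or YMR317W, which the filter removed, and the fits without the 3 libraries gave none for PBI1 against or in the labelled deletion, where deletion 2 had 0 counts. Depth limits PBI1 and YMR317W most: outside overexpression their libraries held 0 to 19 counts.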
